A study of Mus musculus with 18 samples.

Results

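The genes described here encode enzymes and transporters of glycolysis, gluconeogenesis, glycogen and fructose metabolism, together with the kinases that steer these routes and 3 enzymes of the pentose phosphate pathway. They were chosen by gene symbol from a list of 43 genes, and all 43 were found among the 28442 genes of the table. Levels were compared between 6 non-tumoral livers and 12 advanced liver tumors of Alb-R26Met mice. Their transgene, R26stopMet, encodes a Met receptor of joined mouse and human parts and lies in Rosa26. It is silent until Cre removes a stop signal, and the Alb promoter limits Cre to cells that make albumin, chiefly hepatocytes. All samples came from males of a mixed C57 and 129Sv background. Livers as well as tumors carry the transgene, since the livers were taken from mice of the same genotype that had not formed tumors, and no wild-type liver was compared here. Livers were taken at 52 to 71 weeks of age, with a median of 56.5, and tumors at 49 to 72 weeks, with a median of 65. Tumors 11 and 12 were taken from 1 mouse, so the 18 samples came from 17 mice. Sample names hold the tag E19 (2 livers and 7 tumors) or E20 (4 livers and 5 tumors), whose meaning is not given in the sources used here.

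Glycolysis splits glucose into pyruvate, and in most tissues lactate dehydrogenase or the mitochondrial pyruvate dehydrogenase complex takes the pyruvate further. The liver also runs the route backwards. In gluconeogenesis, pyruvate carboxylase and PEP carboxykinase bypass the pyruvate kinase step, fructose bisphosphatase bypasses phosphofructokinase, and glucose-6-phosphate is moved into the endoplasmic reticulum and hydrolyzed to free glucose. Hepatocytes use their own forms of several of these enzymes, such as liver pyruvate kinase and liver glycogen phosphorylase, whereas other tissues and many tumors use sister genes.

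Values are TPM rounded to whole numbers, scaled between samples by a trimmed mean of M values, and are called scaled TPM below. TPM are corrected for transcript length, so levels of different genes can be set side by side. The number of reads behind a value is not known, and deposited totals lay between 835144 and 907513 per sample. Met was between 14.95 and 38.0 scaled TPM in livers and between 76.8 and 159 in tumors, without overlap. One gene, Siglece, made up 17.9% to 29.5% of the total in livers, 21.5% to 53.4% in 11 tumors and 82.9% in tumor 2. As a result 1 deposited TPM of tumor 2 stands for 5.46 scaled TPM, and its values for other genes are coarse. Tumor 10 and liver 1 also stood apart from their groups in several of the genes below. The summed level of 6 hepatocyte markers was 35769 to 43530 scaled TPM in livers and 32750 to 69369 in tumors, but most of it is Alb, Apoa1 and Ttr. By the limma test described below, Apoa1 was higher in tumors and Tat was lower (at 394 to 1143 in livers and 71.7 to 448 in tumors). Neither passed in E19 or E20 samples alone, and Apoa1 did not pass without scaling (0.72, adjusted p = 0.232). Without the limit for testing Apoa1 did not pass either (0.97, adjusted p = 0.0888). Alb did not pass with all samples but was higher without tumor 2 (0.64, limma, adjusted p = 0.0115). Cps1 was at 2.62 in tumor 10 and at no less than 880 in livers. Hnf4a, a defining factor of hepatocytes, was at 25.9 to 56.2 in livers and 31.2 to 55.3 in tumors.

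Most of the genes did not pass the test between tumors and livers. Of the 43 genes, 39 were above the limit for testing (at least 1 scaled TPM in at least 6 samples), and 8 of these had a Benjamini-Hochberg adjusted p under 0.05 in limma on log2(scaled TPM + 1). Pck2 and Pgd were higher in tumors (2 of 39, where 11.2% of all 11353 genes tested were higher). Slc37a4, Pdk2, Sord, Pdk1, Pcx and Pygl were lower (6 of 39, where 7.87% of all genes were lower). With both directions together, the share of these genes that passed is near that of all genes. The median log2 fold change was -0.08 over the 39 genes and -0.01 over all genes tested. Among the 18 glycolytic enzymes tested, 0 passed (limma, with 2 at an unadjusted p under 0.05, Gpi1 and Pfkp, and 0 by an exact permutation test per gene with the same adjustment). In limma with sample quality weights, Gpi1 (0.67, adjusted p = 0.0015), Pfkp (1.48, adjusted p = 0.0319) and Aldoa (0.60, adjusted p = 0.0138) passed as higher. So did Aldoc (0.78, adjusted p = 0.00178) and Ldha (0.60, adjusted p = 0.0153), where 2508 of all 11353 genes were higher. Fold changes below are on the log2(scaled TPM + 1) scale, which understates the change of genes at low levels. In bulk tissue fewer cells of a type and less RNA per cell cannot be told apart.

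**Figure D1:**
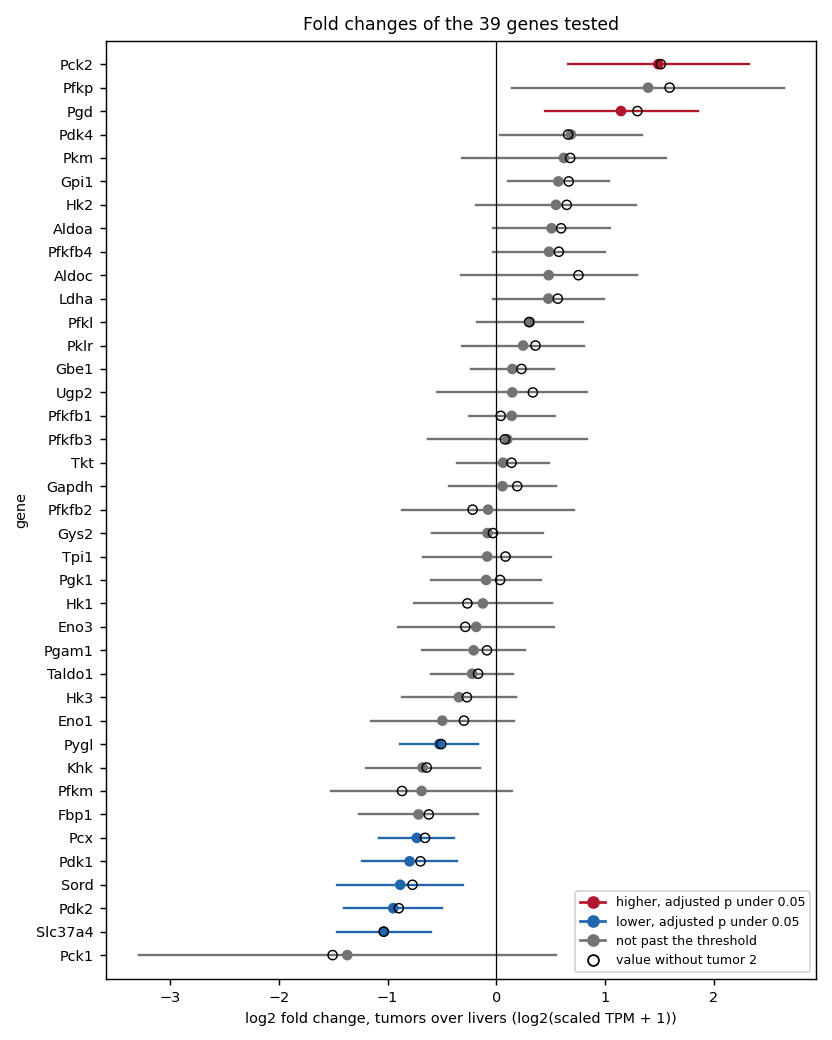
Log2 fold changes of tumors over livers for the 39 genes tested (x axis, log2(scaled TPM + 1)), with lines for 95% confidence intervals. Red and blue mark the 2 genes higher and the 6 genes lower in tumors at an adjusted p under 0.05, and open circles give the value without tumor 2. Pck1 has the widest interval, and Slc37a4 the lowest value of the genes that passed.

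Leaving out tumor 2 changed the count most among the samples left out in turn. Without it 6 of the genes were higher and 6 lower, where 16.5% and 10.7% of all genes passed. The 4 gained were Aldoc (log2 fold change 0.76, adjusted p = 0.0039), Gpi1 (0.67, adjusted p = 0.0125), Pfkp (1.59, adjusted p = 0.0459) and Pfkfb4 (0.58, adjusted p = 0.0462). Deposited values of Pfkfb4 are 0, 1 or 2 in every sample, so its spread is shaped by rounding. Tumor 2 was the lowest tumor in 23 of the 39 genes, and in 44.8% of all genes tested. In these counts a tie goes to the tumor of the lowest number, and in Hk2, Hk3 and Pfkp tumor 2 was tied with others at 0. Among the genes with a mean of at least 10 scaled TPM it was the lowest in 18 of 30, against 44.1% of all such genes.

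**Figure D2:**
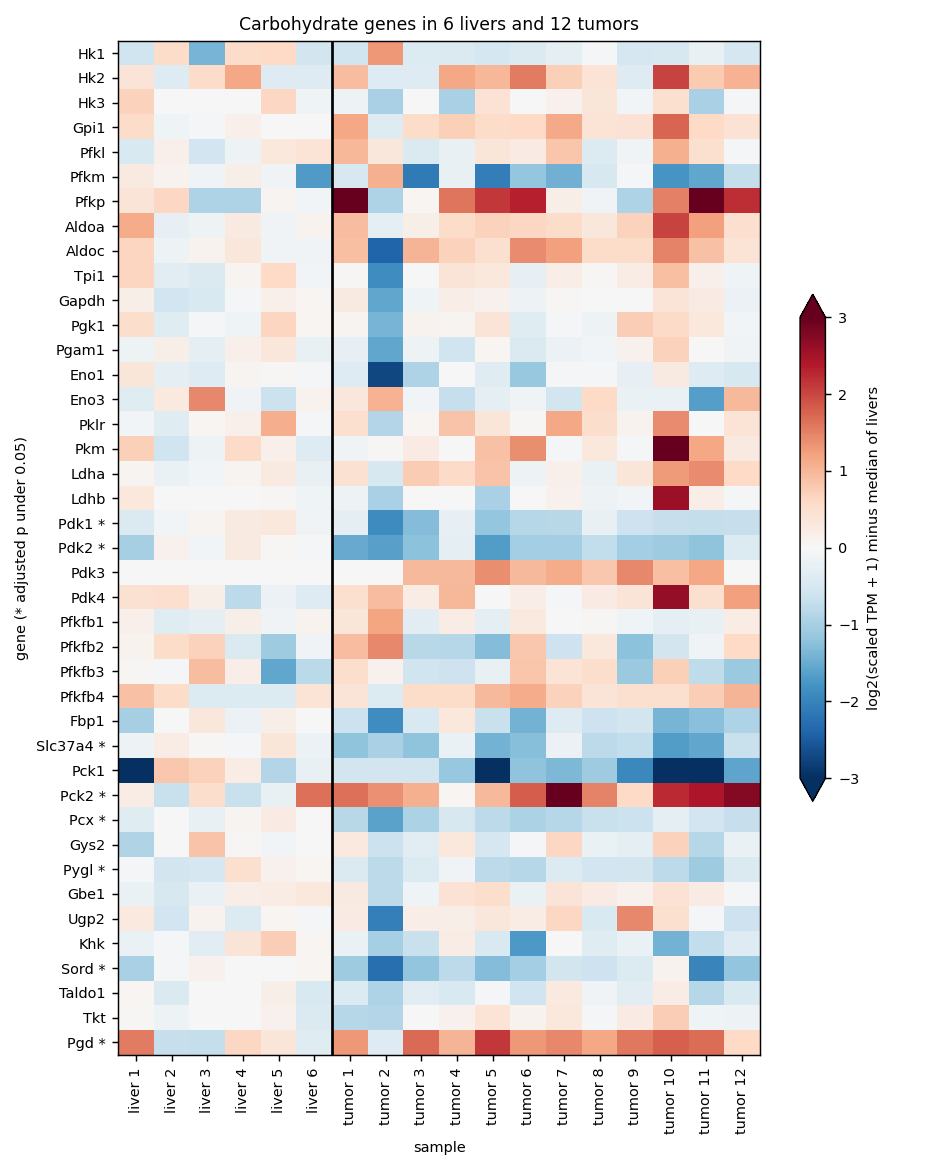
Log2(scaled TPM + 1) of each gene minus the median of the 6 livers, in each of the 18 samples (columns), with red for higher and blue for lower values. Colors end at -3 and 3, and stars mark the 8 genes that passed. The column of tumor 2 is mostly blue in glycolysis, the column of tumor 10 is red for Pkm, Ldhb and Pdk4, and Pck1 is dark blue in liver 1 and tumors 5, 10 and 11.

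Promoters are shown for the genes that passed with a mean of at least 10 scaled TPM, the 2 that were higher and the 3 with the lowest fold changes, so that the sequence upstream of genes that moved in opposite directions can be compared. They are RefSeq sequences of GRCm38.p6, written 5′ to 3′ on the strand of the gene. Each starts 250 bases before the RefSeq start site and is printed up to the first base that RefSeq or GENCODE annotates as exon. Capitals mark matches on either strand to the motifs searched, which were ACGTG and GCGTG (cores bound by hypoxia-inducible factors), CACGTG (the E-box), TGACG (part of the cAMP response element), GGGCGG (the GC box) and TATAAA (the TATA box).
Pck2, chr14:55540016-55540262, plus strand: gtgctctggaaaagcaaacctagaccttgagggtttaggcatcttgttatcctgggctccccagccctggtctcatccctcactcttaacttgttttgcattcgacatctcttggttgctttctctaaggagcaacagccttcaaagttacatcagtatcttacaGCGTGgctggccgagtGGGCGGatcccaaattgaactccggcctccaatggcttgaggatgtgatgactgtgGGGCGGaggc
Pgd, chr4:149166772-149166955, minus strand: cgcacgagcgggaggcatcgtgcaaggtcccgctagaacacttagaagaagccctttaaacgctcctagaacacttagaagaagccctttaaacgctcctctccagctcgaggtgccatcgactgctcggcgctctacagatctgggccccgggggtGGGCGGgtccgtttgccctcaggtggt
Slc37a4, chr9:44396696-44396851, plus strand: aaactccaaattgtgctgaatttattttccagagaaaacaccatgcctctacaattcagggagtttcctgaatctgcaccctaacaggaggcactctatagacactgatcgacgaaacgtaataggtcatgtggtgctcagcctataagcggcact
Pdk2, chr11:95041372-95041621, minus strand: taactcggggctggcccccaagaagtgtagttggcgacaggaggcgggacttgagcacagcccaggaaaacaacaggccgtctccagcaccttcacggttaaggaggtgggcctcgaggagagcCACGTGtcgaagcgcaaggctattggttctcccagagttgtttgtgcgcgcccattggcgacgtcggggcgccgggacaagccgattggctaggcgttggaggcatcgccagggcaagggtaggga
Sord, chr2:122234589-122234748, plus strand: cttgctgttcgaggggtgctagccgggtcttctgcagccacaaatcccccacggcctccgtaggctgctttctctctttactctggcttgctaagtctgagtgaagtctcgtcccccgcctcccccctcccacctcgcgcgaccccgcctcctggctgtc

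Matches were counted over the whole 250 bases before the start site. ACGTG lies within CACGTG, so a match to the E-box also counts for it, on both strands. Pck2 held GCGTG 1 time and GGGCGG 2 times, and Pgd held each of these motifs 1 time, its GCGTG in bases annotated as exon. Pdk2 held CACGTG 1 time. Slc37a4 held TGACG and GGGCGG, 1 time each, and Sord held GGGCGG 2 times, all in bases that GENCODE annotates as exon and that are not printed. No window held TATAAA. Over all 32851 promoter windows of this length, GGGCGG was found in 32.7%, GCGTG in 28.2%, TGACG in 17.8%, ACGTG in 16.6%, TATAAA in 12.4% and CACGTG in 6.02%. A match is a description of letters and not evidence of binding.

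Among genes of gluconeogenesis, the glucose-6-phosphate transporter and pyruvate carboxylase were lower in tumors, and the mitochondrial PEP carboxykinase was higher. Slc37a4 (Entrez 14385, chromosome 9, 44396946 to 44402966), which moves glucose-6-phosphate into the endoplasmic reticulum, was at 76.8, 86.2 and 111 scaled TPM in livers (lowest, median and highest of 6). It was at 26.2, 40.3 and 75.7 in tumors (lowest, median and highest of 12). Every tumor lay below every liver, which holds for 0.854% of all genes tested. The log2 fold change was -1.03 (SE 0.21, limma, adjusted p = 0.00139).

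Pcx (Entrez 18563, chromosome 19, 4510472 to 4621752), the pyruvate carboxylase that feeds oxaloacetate into gluconeogenesis and the citric acid cycle, was at 105, 135 and 161 scaled TPM in livers and at 43.7, 80.8 and 113 in tumors. All tumors but 1, tumor 10, lay below the lowest liver. Its log2 fold change was -0.73 (SE 0.17, limma, adjusted p = 0.0036).

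Pck2 (Entrez 74551, chromosome 14, 55540263 to 55550020) encodes the PEP carboxykinase of mitochondria. It was low in livers, at 1.90, 3.67 and 13.5 scaled TPM, and at 3.83, 12.7 and 37.8 in tumors. The groups overlapped, with 5 tumors above the highest liver, which was liver 6. The log2 fold change was 1.49 (SE 0.40, limma, adjusted p = 0.0117).

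Pck1, the cytosolic PEP carboxykinase and a textbook marker of the fasted liver, ran over a wide range in both groups. It was at 29.1, 754 and 1308 scaled TPM in livers and at 1.75, 306 and 511 in tumors. The log2 fold change was -1.37 and did not pass (95% interval -3.29 to 0.55, adjusted p = 0.346). A single sample in each group lay far below the rest. Liver 1 was at 29.1 and the other 5 livers at no less than 408, whereas tumor 10 was at 1.75 and the other 11 tumors at no less than 79.4. Without liver 1 the log2 fold change was -2.17 (adjusted p = 0.0821), and without tumor 10 it was -0.82 (adjusted p = 0.430). In limma with sample quality weights Pck1 passed as lower (-1.81, adjusted p = 0.0348). Fbp1, the fructose bisphosphatase of liver, was at 150, 300.3 and 380.3 scaled TPM in livers and 81.9, 190.1 and 373 in tumors (log2 fold change -0.72, adjusted p = 0.0634). It passed without liver 1 (-0.89, adjusted p = 0.0177) and without tumor 4 (-0.82, adjusted p = 0.0196). It also passed in limma with the tag as a covariate (-0.81, adjusted p = 0.0323) and with sample quality weights (-0.68, adjusted p = 0.00881). With a scaling over genes of at least 1 it passed too (-0.79, adjusted p = 0.0485), and in the remaining changed fits it did not. Its muscle counterpart Fbp2 is listed at 0 in every sample.

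**Figure D3:**
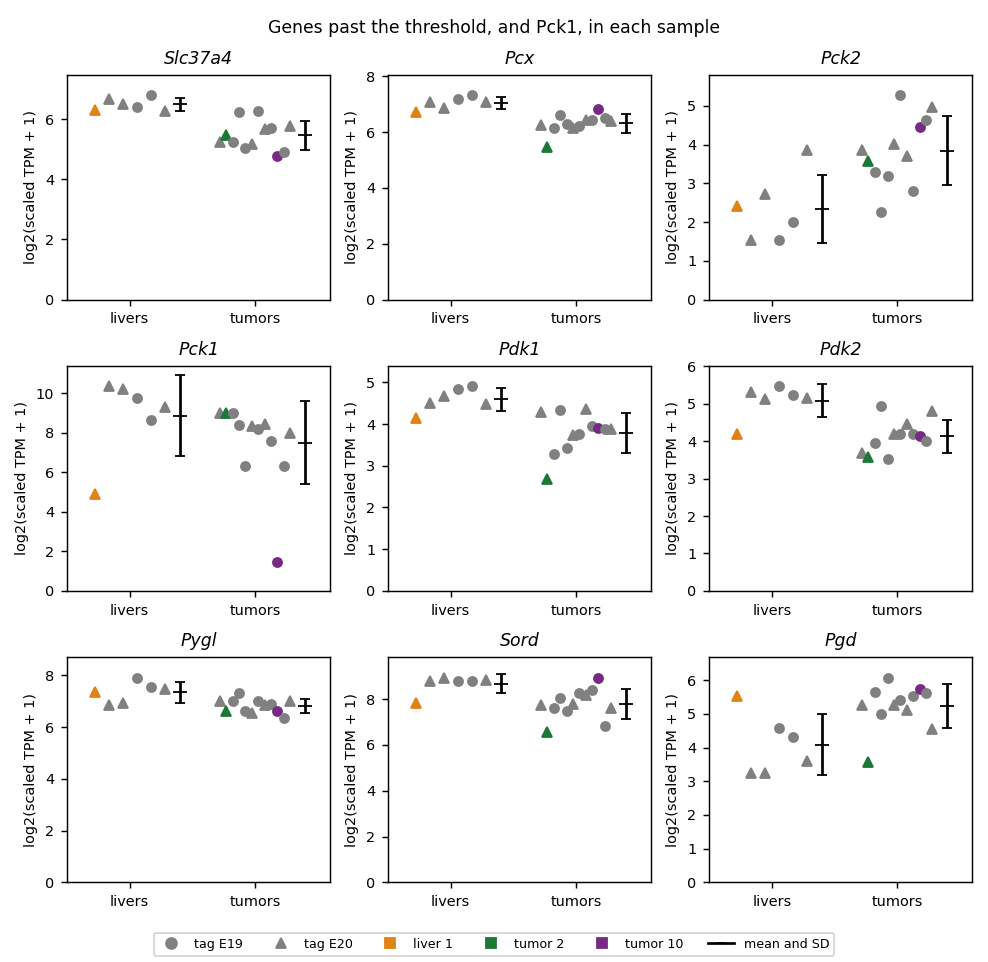
Log2(scaled TPM + 1) of the 8 genes that passed and of Pck1 in each of 6 livers and 12 tumors, with the mean and SD of each group beside the points. Circles mark tag E19 and triangles tag E20, and liver 1, tumor 2 and tumor 10 are colored. Slc37a4 is the gene without overlap between the groups, and Pck1 shows the low points of liver 1 and tumor 10.

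Pyruvate dehydrogenase kinases phosphorylate and switch off the pyruvate dehydrogenase complex, which turns pyruvate into acetyl-CoA. Those with the highest levels in livers were lower in tumors. Pdk2 (Entrez 18604, chromosome 11, 95026258 to 95041371) was at 17.4, 35.9 and 43.2 scaled TPM in livers and at 10.5, 16.9 and 29.7 in tumors (log2 fold change -0.95, SE 0.22, limma, adjusted p = 0.00374). Pdk1 (Entrez 228026, chromosome 2, 71873215 to 71903858) was at 16.7, 23.1 and 28.9 in livers and at 5.46, 13.8 and 19.6 in tumors (log2 fold change -0.80, SE 0.21, adjusted p = 0.0102). In each of them 9 of 12 tumors lay below the lowest liver, which was liver 1 for both.

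The other pyruvate dehydrogenase kinases were at low levels. Pdk4, the kinase induced by fasting, was at 0.96, 2.40 and 3.80 scaled TPM in livers and at 2.29, 3.58 and 20.1 in tumors, and did not pass (log2 fold change 0.69, adjusted p = 0.145). Its highest value was that of tumor 10. Pdk3 is listed at 0 in all 6 livers and was above 0 in 9 tumors, at no more than 1.71, and fell under the limit for testing. It was tested and passed as higher without the limit (log2 fold change 0.81, limma, adjusted p = 0.0112) and without scaling (0.85, adjusted p = 0.0255). Its deposited values are 0 in every liver and 0, 1 or 2 in tumors, so the spread behind these p-values is shaped by rounding.

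In the pentose phosphate pathway, which makes NADPH and ribose, the oxidative enzyme on the list was higher in tumors. Pgd (Entrez 110208, chromosome 4, 149149991 to 149166705), the 6-phosphogluconate dehydrogenase, was at 8.43, 15.01 and 45.0 scaled TPM in livers and at 10.9, 39.3 and 66.4 in tumors. Groups overlapped, with liver 1 highest among livers and tumor 2 lowest among tumors. The log2 fold change was 1.15 (SE 0.34, limma, adjusted p = 0.0208). It lost the call without liver 2 (0.98, adjusted p = 0.0702), liver 3 (0.98, adjusted p = 0.0708) or liver 6 (1.05, adjusted p = 0.0594). The enzymes of the non-oxidative branch did not pass, Taldo1 (transaldolase) with a log2 fold change of -0.22 (95% interval -0.60 to 0.16) and Tkt (transketolase) with 0.06 (95% interval -0.36 to 0.48).

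Of the 4 glycogen genes, 1 passed. Pygl (Entrez 110095, chromosome 12, 70190815 to 70227683), the liver glycogen phosphorylase, was at 115, 170.3 and 239 scaled TPM in livers and at 81.1, 115 and 159 in tumors, and 6 tumors lay below the lowest liver. The log2 fold change was -0.52 (SE 0.17, limma, adjusted p = 0.0368). This call was lost without liver 4 (-0.41, adjusted p = 0.128), liver 5 (-0.48, adjusted p = 0.0814), liver 6 (-0.50, adjusted p = 0.0832), tumor 5 (-0.51, adjusted p = 0.0582), tumor 6 (-0.50, adjusted p = 0.0568) or tumor 11 (-0.48, adjusted p = 0.0597). Scaling by the median of ratios also ended the call (-0.46, adjusted p = 0.0588), as did scaling to the total without the 10 highest genes (-0.45, adjusted p = 0.0674).

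The genes that build glycogen had intervals that span 0. Gys2, the liver glycogen synthase, was at 18.2, 34.6 and 63.7 scaled TPM in livers and at 18.7, 30.2 and 56.8 in tumors (log2 fold change -0.08, 95% interval -0.59 to 0.43). Gbe1, the branching enzyme, had 0.15 (-0.23 to 0.53). Ugp2, which makes UDP-glucose, had 0.15 (-0.54 to 0.83), and its value in tumors ran from 21.8 in tumor 2 to 253 in tumor 9.

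Sord and Khk, which make and use fructose, were abundant in livers. Sord (Entrez 20322, chromosome 2, 122234839 to 122265337), the sorbitol dehydrogenase that makes fructose from sorbitol, was at 229, 447 and 489 scaled TPM in livers and at 92.8, 216 and 484 in tumors. In 7 tumors it lay below the lowest liver, liver 1, whereas tumor 10 reached the level of the higher livers. The log2 fold change was -0.88 (SE 0.28, limma, adjusted p = 0.0302), and the call was lost without liver 2, 3, 4, 5 or 6 (-0.86, -0.83, -0.86, -0.86 and -0.85, adjusted p = 0.0657, 0.0745, 0.0663, 0.0607 and 0.0691). Khk, the ketohexokinase that phosphorylates fructose, was at 229, 284 and 477 in livers and at 85.7, 212 and 328 in tumors (log2 fold change -0.68, adjusted p = 0.0661). It passed without tumor 4 (-0.75, adjusted p = 0.0364). It also passed in limma with the tag as a covariate (-0.78, adjusted p = 0.0289) and with sample quality weights (-0.55, adjusted p = 0.0401). In the remaining changed fits it did not pass.

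The listed genes for the first steps of glycolysis, which are not all the genes of these steps, gave no call. Hk1, Hk2 and Hk3, the hexokinases found outside hepatocytes, were between 0 and 5.46 scaled TPM in all samples. Gpi1, glucose-6-phosphate isomerase, was at 52.3, 57.3 and 84.99 in livers and at 43.7, 85.6 and 194 in tumors, with 6 tumors above every liver. Its log2 fold change of 0.57 had a 95% interval from 0.11 to 1.03 and an adjusted p of 0.0800, which was 0.0463 without liver 1 (0.66).

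Phosphofructokinase, the committing step, is encoded by Pfkl (liver type), Pfkm (muscle type) and Pfkp (platelet type). Pfkl was at 14.05, 21.5 and 28.5 scaled TPM in livers and at 15.6, 26.5 and 45.5 in tumors (log2 fold change 0.31, adjusted p = 0.411). Pfkp was at most 1.90 in livers and ran from 0 to 23.2 in tumors, with 7 tumors above every liver (log2 fold change 1.40, adjusted p = 0.118). Tumors fell on both sides for this gene, with 23.2 in tumor 1, 17.5 in tumor 11 and 0 in tumors 2 and 9. Pfkm was at 5.54, 20.4 and 24.7 in livers and at 3.89, 10.3 and 43.7 in tumors (log2 fold change -0.69, adjusted p = 0.264), the highest value being that of tumor 2.

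Aldoa, an aldolase of muscle and growing tissue, was at 39.9, 47.3 and 103 scaled TPM in livers and at 38.2, 71.6 and 195 in tumors (log2 fold change 0.51, adjusted p = 0.197). Liver 1 and tumor 10 were the highest of their groups. With sample quality weights Aldoa passed as higher (0.60, limma, adjusted p = 0.0138). Aldoc was at 3.80 to 7.26 in livers and 0 to 13.99 in tumors, with 7 tumors above every liver and a log2 fold change of 0.48 (adjusted p = 0.448).

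None of the genes for the steps from triose phosphates towards pyruvate passed, and their intervals allow for differences. Log2 fold changes were -0.08 for Tpi1 (95% interval -0.67 to 0.51), 0.06 for Gapdh (-0.43 to 0.55), -0.09 for Pgk1 (-0.60 to 0.42), -0.21 for Pgam1 (-0.68 to 0.26) and -0.50 for Eno1 (-1.15 to 0.16). In all 5 genes tumor 2 was the lowest tumor. Eno1 was at 418, 548 and 703 scaled TPM in livers and at 81.9, 425 and 664 in tumors, with 4 tumors below every liver. Gapdh was at 853, 1273 and 1441 scaled TPM in livers and at 431, 1290 and 1668 in tumors. Its level is uncertain, since the processed pseudogene Gm5523, a near copy, is listed at 184 to 431 in livers and 70.4 to 464 in tumors. Eno3, the muscle enolase, was at no more than 7.49 and Eno2, the neuronal enolase, is listed at 0 in every sample.

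Pyruvate kinase is made from Pklr in hepatocytes and from Pkm in most other cells. Pklr was at 46.6, 60.7 and 131 scaled TPM in livers and at 32.8, 79.5 and 163 in tumors (log2 fold change 0.25, 95% interval -0.31 to 0.81). Pkm was at 6.65, 10.7 and 18.2 in livers and at 9.71, 12.8 and 185 in tumors (log2 fold change 0.62, 95% interval -0.32 to 1.56). The value of 185 is that of tumor 10, and the other 11 tumors were at no more than 29.5. Without tumor 10 the log2 fold change of Pkm was 0.32.

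Ldha, the lactate dehydrogenase subunit of muscle and glycolytic tissue, was at 326, 383 and 465 scaled TPM in livers and at 273, 547 and 1018 in tumors, with 8 tumors above every liver. Its log2 fold change was 0.48 (95% interval -0.03 to 0.99, adjusted p = 0.193). With sample quality weights Ldha passed as higher (0.60, limma, adjusted p = 0.0153). Ldhb was at no more than 1.45 in livers and 1.25 in 11 tumors, and at 10.5 in tumor 10, and was not tested.

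The PFK-2/FBPase-2 enzymes make and break fructose 2,6-bisphosphate, which activates phosphofructokinase and blocks fructose bisphosphatase. None passed, with log2 fold changes of 0.14 for Pfkfb1, the liver form (95% interval -0.25 to 0.54), -0.08 for Pfkfb2 (-0.87 to 0.71), 0.10 for Pfkfb3 (-0.63 to 0.83) and 0.48 for Pfkfb4 (-0.03 to 1.0). Pfkfb1 was the most abundant, at 12.4 to 18.2 scaled TPM in livers and 12.6 to 38.2 in tumors. Pfkfb4 was at no more than 1.90 in all samples.

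Shares of related enzymes were taken within each sample, where the scaling between samples cancels. They are given without a test. Pck2 made up 0.145% to 13.04% of both PEP carboxykinases in livers (median 0.596%) and 1.12% to 92.3% in tumors. The 92.3% is tumor 10, and the other tumors reached 22.9%. Among the pyruvate dehydrogenase kinases, Pdk4 held 1.33% to 9.62% in livers and 6.78% to 38.98% in tumors, again highest in tumor 10. The share of Pkm among pyruvate kinases was 8.39% to 24.04% in livers and 7.03% to 53.1% in tumors, with at most 32.3% outside tumor 10. Pfkp held at most 4.0% of phosphofructokinases in livers and up to 32.6% in tumors.

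Pygb, the brain-type glycogen phosphorylase, is not on the list and was added after its values were seen. It held 0.400% to 1.75% of the 3 glycogen phosphorylases in livers and 9.68% to 30.0% in tumors, without overlap.

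**Figure D4:**
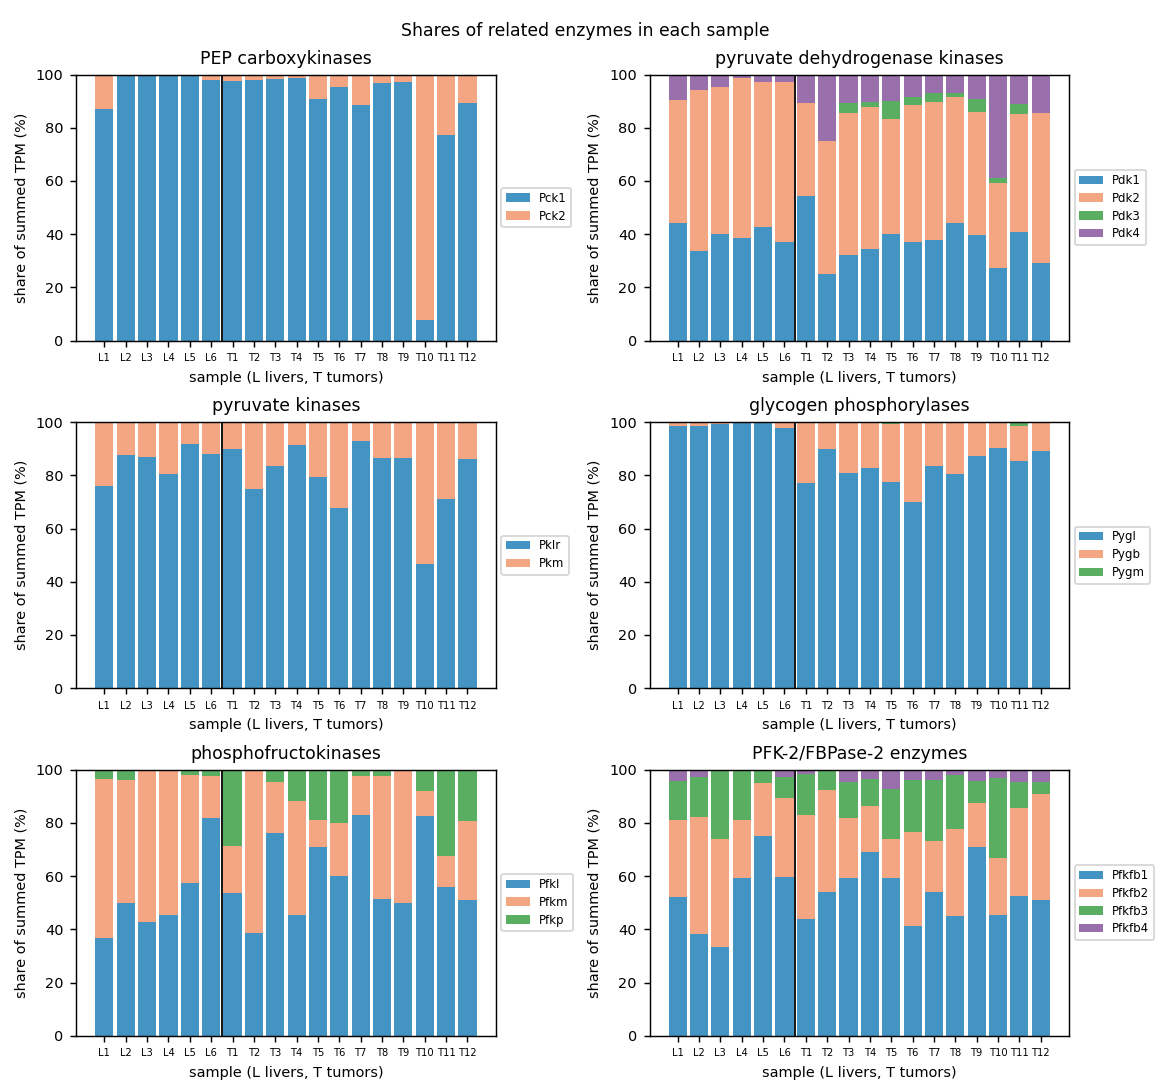
Share of summed TPM (%) held by each gene of 6 enzyme families in 6 livers (L1 to L6) and 12 tumors (T1 to T12). Pck2 takes most of the PEP carboxykinase sum in tumor 10, where Pkm and Pdk4 also have their highest shares, and Pygb is visible in each tumor at 9.68% or more and at most 1.75% in livers.

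Tumor 10 differed from the other tumors in many of the genes. It was the highest tumor in 17 of 39 genes, whereas it was the highest tumor in 12.2% of all genes tested. Glycolytic genes among the 17 were Hk2, Hk3, Gpi1, Pfkl, Aldoa, Aldoc, Tpi1, Gapdh, Pgam1, Eno1, Pklr and Pkm. The others were Pcx of gluconeogenesis, the glycogen synthase Gys2, Sord, Tkt and Pdk4. The glucose-6-phosphatase G6pc1, from a second list below, was also highest in tumor 10. Tumor 10 was the lowest in Slc37a4 and Pck1. Markers of liver zones moved with it. Glul, a marker of hepatocytes around the central vein, was at 5373 scaled TPM in tumor 10, against a median of 92.0 over the tumors, and the summed level of 5 periportal markers was 3.50, the lowest of all samples. Of 8 genes that low oxygen induces, 7 were above 0 in a tumor, and 4 of these were highest in tumor 10 (Egln3, Ndrg1, Bnip3 and Adm), 2 in tumor 2 (Vegfa and Ddit4) and 1 in tumor 11 (Ankrd37). Egln3 was at 35.9 and Ndrg1 at 67.3 in tumor 10. The part of these in the glycolytic values was not tested.

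Spread between tumors differed by gene. The SD of log2(scaled TPM + 1) over the 11 tumors other than tumor 2 was largest for Pck1 (2.16), Pfkp (1.48), Pkm (1.20) and Pck2 (0.93), and smallest for Hk1 (0.15), Gapdh (0.19) and Pcx (0.21). For Hk1 the deposited value is 1 in 10 of these tumors and 2 in the other, so its SD shows rounding and scaling rather than spread. The median was 0.48 over the 39 genes and 0.35 over all genes tested. Over the 6 livers these medians were 0.41 and 0.35, and 25 of the 39 genes had a larger SD in those 11 tumors than in livers.

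Each tag was also taken alone. In E19 samples (2 livers and 7 tumors) and E20 samples (4 livers and 5 tumors), log2 fold changes were 1.93 and 1.39 for Pck2, 1.12 and 0.85 for Pgd, -1.15 and -0.97 for Slc37a4, and -1.22 and -0.81 for Pdk2. They were -0.87 and -1.03 for Sord, -1.08 and -0.66 for Pdk1, -0.82 and -0.80 for Pcx, and -0.90 and -0.35 for Pygl. All 8 kept their direction within both tags, but they had passed in these same samples, so this is not separate support. With E19 samples alone, Slc37a4 (adjusted p = 0.0861), Pck2 (0.0820) and Sord (0.209) did not pass in limma, where 13.4% of all genes passed. With E20 samples alone Slc37a4 passed and the other 7 did not, where 4.15% of all genes passed. Pck1 had log2 fold changes of -2.46 and -0.15. In limma's interaction test between group and tag, 0 of 11353 genes passed (0.00%), and 315 were at an unadjusted p under 0.05, of which Hk1 is on the list. With the tag as a covariate over all samples, 2 listed genes were higher and 8 lower, with Fbp1 and Khk gained. In that fit 1384 genes were higher and 999 lower of 11353 tested.

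Other enzymes of carbohydrate metabolism were taken from a second list of 45 genes. Of 40 tested, 6 were higher in tumors and 7 lower, where 11.2% and 7.87% of all genes were, with a median log2 fold change of -0.12. The list has no test of its own, and leaving out 1 sample in turn gave 5 to 7 higher and 4 to 9 lower (4 lower without liver 2 or 4). Pygb had the largest change, from 0.937, 1.45 and 3.17 scaled TPM in livers to 10.5, 26.2 and 40.0 in tumors (log2 fold change 3.14, SE 0.28, limma, adjusted p = 7.95e-08), so that every tumor lay above every liver, as in 2.55% of all genes. Ppp1r3c, a subunit that brings protein phosphatase 1 to glycogen, was at 4.36, 40.3 and 65.6 in livers and at 1.90, 6.24 and 14.9 in tumors (-2.04, adjusted p = 0.00187). Liver 1 was the low liver here and the others were at no less than 27.7. With E20 samples alone the call of Ppp1r3c was lost (-1.93, limma, adjusted p = 0.132). G6pdx, the first enzyme of the pentose phosphate pathway, which precedes Pgd, was at 0.937, 1.75 and 6.54 in livers and at 0, 12.1 and 25.0 in tumors (1.85, adjusted p = 0.0161). It is listed at 0 in tumor 2 alone. The call of G6pdx was lost with E20 samples alone (1.69, limma, adjusted p = 0.362) and with a pseudocount of 0.1 (2.05, adjusted p = 0.114). It was also lost in livers and tumors 1 to 6 without their number as a block (1.83, adjusted p = 0.0991).

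Akr1b1, the aldose reductase that makes the sorbitol used by Sord, rose from 1.90, 4.97 and 10.2 scaled TPM to 5.46, 19.2 and 33.4 (log2 fold change 1.62, limma, adjusted p = 0.000988). With E20 samples alone its call was lost (1.38, adjusted p = 0.101). Sord and Akr1b1, consecutive enzymes of the polyol pathway, differed in opposite directions. Pgm2, a phosphopentomutase, was at 0.937, 1.27 and 3.63 in livers and at 3.76, 5.60 and 9.98 in tumors, without overlap (1.42, adjusted p = 4.59e-05). Gyg1, the glycogenin that primes glycogen, was at 0.937, 2.41 and 3.99 in livers and at 0, 7.72 and 13.8 in tumors (1.17, adjusted p = 0.0472). Its call was lost in 15 of the 18 fits without 1 sample, and with E20 samples alone the log2 fold change was 0.64 (adjusted p = 0.652). The other 7 that passed were Pdp1, higher, and Ppp1r3b, Mdh1, Got1, Pdp2, Glyctk and Pgm1, lower, with log2 fold changes between -1.10 and 0.93. Of these, Pgm1 lost its call in 10 fits without 1 sample, Pdp2 in 5 and Glyctk in 2. G6pc1, the glucose-6-phosphatase that works with Slc37a4, did not pass (-0.25, adjusted p = 0.841), and was at 1.45 in liver 1 and at no less than 36.5 in the other livers.

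**Figure D5:**
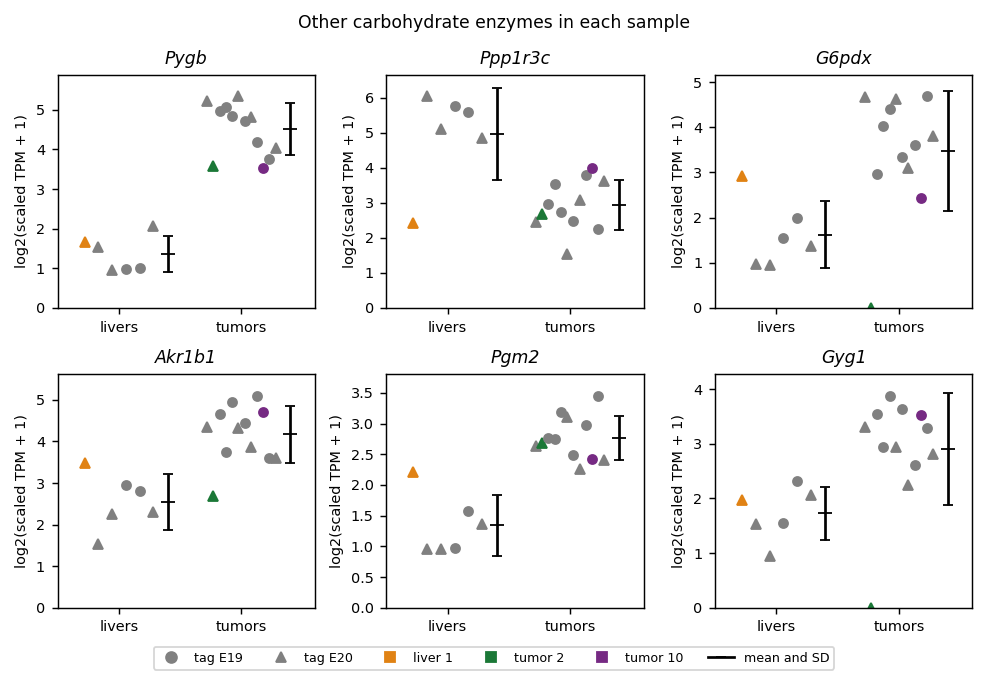
Log2(scaled TPM + 1) of 6 other carbohydrate enzymes with the largest changes among those that passed, in each of 6 livers and 12 tumors, with the mean and SD of each group. Symbols are those of the plot of the genes that passed. Pygb and Pgm2 show no overlap between the groups, and tumor 2 is at 0 for G6pdx and Gyg1.

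Among 11 regulators of carbohydrate genes, 1 passed, Crtc2, a coactivator of gluconeogenic genes, which was lower (log2 fold change -0.55, limma, adjusted p = 0.0413) and lost its call in 12 of the 18 fits without 1 sample. Mlxipl (ChREBP), the glucose-sensing factor, was at 46.9, 93.6 and 149 scaled TPM in livers and at 9.72, 24.1 and 104 in tumors (-1.40, adjusted p = 0.0517). It passed in 6 of the fits without 1 sample, among them that without tumor 2 (-1.54, adjusted p = 0.0225). With E19 samples alone its log2 fold change was -1.74 (adjusted p = 0.00678) and with E20 samples alone -0.34 (adjusted p = 0.539), and the difference between tags did not pass (limma interaction, unadjusted p = 0.00222, adjusted p = 0.958). Of 8 genes induced by low oxygen, 5 were tested and Ndrg1 passed (1.52, adjusted p = 0.0185).

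Markers of other cells and of liver zones were looked at beside these genes. Of all genes tested, 11.2% were higher in tumors and 7.87% lower. Summed levels of periportal markers, where gluconeogenesis is highest in normal liver, were 1781 to 2127 scaled TPM in livers and 3.50 to 1310 in tumors, without overlap, and 2 of 5 passed as lower. Without tumor 10 the tumors were at 519 to 1310 and 4 of 5 passed, and without liver 2 only 1 did. Pericentral markers were at 1424 to 3392 in livers and 70.2 to 8574 in tumors, and 3 of 6 were lower. The 8574 is tumor 10, without which the tumors reached 1239, below every liver, and 6 of 6 were lower. In the fit without tumor 10, 875 of all 11268 genes tested were lower and 1231 higher. In that without liver 2, 576 of 11269 were lower. Endothelial markers ran from 10.9 to 26.6 in livers and 17.5 to 54.6 in tumors, with 2 of 4 higher, and fibroblast markers from 40.7 to 62.8 and from 29.2 to 115, with 2 of 5 higher and 1 lower. Macrophage markers were at 42.8 to 112 in livers and 9.98 to 94.0 in tumors, with 1 of 6 lower, a call lost in 10 of the 18 fits without 1 sample. Proliferation genes were at no more than 1.87 in livers and at 3.83 to 21.1 in tumors, with 3 of 3 tested higher.

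The remaining lists were small. Cholangiocyte markers were at 3.17 to 10.5 scaled TPM in livers and 3.50 to 16.4 in tumors, and erythroid markers at 3.63 to 57.8 and 5.46 to 25.8, with 1 of 3 lower, a call not made in 10 of the 18 fits without 1 sample. Markers of T cells, B cells and neutrophils each added up to no more than 6.12, and 0 of the 1 tested passed. Markers of skeletal muscle (4 genes) and of fat cells (2 genes) are listed at 0 throughout. The part of all these cells in the differences above was not tested.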

How the data were processed

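Poly-A RNA of 6 livers and 12 tumors had been sequenced paired end by the authors, with reads aligned to GRCm38 and genes quantified with Salmon as TPM. The submitters' processing notes also name edgeR, with no role given. The deposited table is a score in whole numbers, called counts in its name, and was read as rounded TPM, since every sample's total stays under the sum that TPM allow. The study calls it raw counts and gives 1 nominal depth for all samples, but reads behind each value are unknown, so no counting intervals are given. Samples were grouped by their labels. Ages came from the study's sample list, in which the mouse number of 2 tumors differs from the labels, and these were matched by piece number and tag. No other column of values was used. Some genes of these pathways are not reported here.

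Scaling between samples used M values trimmed by 30% and A values trimmed by 5%, without weights, over genes of at least 5 in both samples. A gene was tested if 6 or more samples reached 1 after scaling. Its log2(value + 1) was fitted with limma (version 3.58.1, R version 4.3.3), using the trend option for the prior variance, and p-values were adjusted by Benjamini-Hochberg over all genes tested. A count model was not used, as the values are not read counts. The fit was tested on simulated data. Shares and figures were made with Python 3.11.15, pandas 2.3.3 and matplotlib 3.10.9. Apart from tumors 11 and 12, each sample came from its own mouse.

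All listed genes are named, with full values for those that passed and their sister genes. From the second list, the 6 genes with the largest changes among those that passed are described. G6pc1, Mlxipl, Pygb in the shares, Gm5523, Siglece and the other 7 enzymes named by symbol were chosen after their values were seen. Promoters are those of the 3 highest and 3 lowest fold changes among genes that passed with a mean of at least 10, of which 5 met the rule. Members and lists were chosen with earlier results of these data known. Positions and promoters come from RefSeq (GRCm38.p6), looked up by Entrez identifier, and exons from GENCODE vM21.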

Additional observations from a re-analysis of the deposited data

Results flagged for a closer look

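In 15 of 86 results 1 liver lay apart from the other 5. Chance alone gives about 1 in 20 for separate results with normally distributed values. The 86 results are not separate, since shares reuse gene values and shares within a family mirror each other, and low values are rounded. Their number can therefore not be set against chance. For each result, the distance from the extreme liver to its neighbor was divided by the distance between the highest and the lowest liver, and this ratio was above Dixon's critical value. Liver 1 was the one apart in 8 of the 15.

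Liver 1 was the high liver for Gpi1 (ratio 0.632, 84.99 scaled TPM against at most 64.3), Aldoa (0.736, 103 against 56.6), Ldhb (0.689, 1.45 against 0.997) and G6pdx (0.633, 6.54 against 2.99). It was the low liver for Pdk2 (0.632, 17.4 against at least 33.7) and Sord (0.809, 229 against 439). Its share of Pck2 among PEP carboxykinases was 13.04% and at most 2.07% in the other livers, with a ratio of 0.851 that also holds for Pck1.

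Other livers stood apart in single genes. Liver 6 was low for Pfkm (ratio 0.689, 5.54 scaled TPM against at least 18.7) and high for Pck2 (0.678, 13.5 against at most 5.62). It was also the only liver with Pygm above 0 (ratio 1.0, 0.439% of glycogen phosphorylases), a share that rests on a deposited value of 1. Liver 3 was high for Eno3 (ratio 0.715, 7.49 scaled TPM against 2.85), and its shares of Eno3 (1.76%) and Eno1 (98.2%) among enolases had a ratio of 0.712. Liver 5 was high for Pklr (ratio 0.755, 131 against 67.2).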

How the results depend on the processing

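The 8 genes that passed kept their direction in all 37 other fits in which samples, scaling, filter, pseudocount, covariates or test were changed. All of these reuse the samples in which the genes had passed. Of these fits, 12 ended the call of Pygl, 8 that of Sord, 7 that of Pgd, 4 that of Pck2, 2 those of Pcx and Pdk1 each, and 1 those of Pdk2 and Slc37a4 each. The cause was not tested. Rounding to whole TPM limits genes under about 5 scaled TPM, and most of all in tumor 2.

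At least 1 count of genes that passed moved by more than 1.5 times in each of the following fits, given as all genes, then listed genes higher and lower. Without scaling they were 1341, 1 (Pdk3, not Pck2 or Pgd) and 2, and the median log2 fold change of all genes was -0.18. Of 13309 genes tested in that fit, 670 were higher and 671 lower, and 41 listed genes were tested. Sample quality weights gave 4551, 8 and 9, E19 samples alone 1338, 1 and 4, and E20 samples alone 428, 0 and 1 (limma, with 1 higher at an unadjusted p under 0.05). All genes higher and lower numbered 2508 and 2043 of 11353 tested with the weights. They were 839 and 499 of 9987 with E19 samples, and 335 and 93 of 10312 with E20 samples. Listed genes tested were 39, 35 and 34 in these fits. Without tumors 2 and 10 the counts were 3018, 5 and 6. There 1826 genes were higher and 1192 lower of 11241 tested, with 38 listed genes tested. Leaving out each sample in turn gave 1588 to 3074 genes, 1 to 6 listed genes higher (1 without liver 2, 3 or 6, and 6 without tumor 2) and 4 to 8 lower. Over all genes, 1012 to 1865 were higher and 576 to 1209 lower, the lowest counts without liver 2 and the highest without tumor 2. The sets without tumors 2 and 10, and a scaling over genes of at least 1, were chosen after seeing the data.

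Livers and tumors share the numbers 1 to 6, but samples of the same number came from different mice in the study's sample list. Correlations of deviations ran from -0.10 to 0.43 over 6 same-number pairs. Their mean was 0.18, against -0.035 for pairs of other numbers, and 3 of 6 livers correlated best with their own number. The cause was not tested. With the number as a block in livers and tumors 1 to 6, counts were 1278, 1 and 5, and without the block in the same 12 samples 1181, 0 and 5 (limma, with 3 higher at an unadjusted p under 0.05 in both). Of 10393 genes tested, 689 were higher and 589 lower with the block, and 658 and 523 without it. Under either of them the log2 fold change of Gapdh was -0.086, of Pfkfb2 0.072, of Ugp2 -0.039 and of Tkt -0.11.

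Other changes of sign concerned genes that did not pass. They were, with E20 samples alone, Pfkm 0.010, Gapdh -0.13, Eno3 0.20, Pfkfb2 0.50, Ugp2 -0.46 and Tkt -0.22, and with E19 samples alone Pgk1 0.043, Pklr -0.055 and Pfkfb1 -0.18. Without scaling they were Gapdh -0.20, Pfkfb1 -0.10, Pfkfb3 -0.081, Gbe1 -0.087, Ugp2 -0.090 and Tkt -0.18. With the tag as a covariate they were Gapdh -0.040, Eno3 0.060, Pfkfb2 0.28, Ugp2 -0.014 and Tkt -0.056, and with age Pfkfb3 -0.0042. Quality weights gave Tpi1 0.19, Pgk1 0.14 and Pfkfb3 -0.073, the set without tumors 2 and 10 gave Tpi1 0.011 and Pfkfb3 -0.0061, scaling over genes of at least 1 gave Gapdh -0.017 and Tkt -0.010, and a pseudocount of 0.1 gave Hk1 0.14. Leaving out each sample in turn gave ranges across 0 for Eno3 (-0.34 to 0.078), Gapdh (-0.035 to 0.19), Gys2 (-0.26 to 0.093), Hk1 (-0.38 to 0.024), Pfkfb2 (-0.28 to 0.072), Pfkfb3 (-0.17 to 0.33), Pgk1 (-0.19 to 0.035), Tkt (-0.011 to 0.14) and Tpi1 (-0.19 to 0.084).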
